A study of Rattus norvegicus with 3 samples.

Results

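The 2 days between postnatal day 6 and day 8 of the rat testis were compared over all probe sets of an expression array. The comparison holds each of the 26419 probe sets of the array except the random-sequence control, each as the log2 ratio of its day 8 intensity over its day 6 intensity, and 13580 of them were above the intensity floor on at least 1 of the 2 days. Testes came from Wistar-Imamichi rats, a Wistar stock, with the day of birth counted as day 1 and no treatment named for either group. Total RNA of whole testis was hybridised to 1 one-colour array at day 6 and 1 at day 8, and the other array of the study, at day 10, is used here only to place values. The number of animals behind each RNA is not given in the labels. The study screened for genes that differ between ages early in testis development.

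In the first days after birth the rat seminiferous cord holds Sertoli cells, which are still dividing, and germ cells that leave the resting gonocyte state, move to the edge of the cord and become spermatogonia. Sertoli cells make GDNF, and spermatogonial stem cells read it through the receptor Ret and its coreceptor Gfra1. Between the cords lie fetal-type Leydig cells, which make androgen, together with peritubular, endothelial and immune cells. Chemokines, immediate early transcription factors and the C/EBP factors are known as genes that respond fast to cytokines, growth factors and tissue stress.

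With 1 array per day there is no replicate, so no difference below has a test, an error between animals or a p-value, and age, animals and array cannot be told apart. Since whole testis was used, fewer cells of a type and less RNA per cell cannot be told apart either. Median intensities were 220.3, 221.4 and 203.4 on days 6, 8 and 10, and the random-sequence control read between 24.6 and 25.6. These medians set the floor, at 7.78, 7.79 and 7.67 on the log2 scale. The receptor probe sets of smell and pheromone sensing, genes mostly silent in testis, had differences with quartiles of -0.28 and 0.26. In 62 genes with more than 1 probe set in the comparison, the differences of the probe sets of 1 gene had a median SD of 0.15 and a pooled SD of 0.27, which is spread within arrays and not between animals. Levels of genes are given as log2 intensities, and a difference is the log2 ratio of day 8 to day 6.

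The arrays carried the markers of testis on both days. Wt1, a transcription factor of Sertoli cells, had 14.06 on day 6 and 13.88 on day 8. Cyp17a1, the androgen synthesis enzyme of Leydig cells, had 14.01 and 13.78, and Acta2, the smooth muscle actin of peritubular cells, 15.31 and 15.03. The germ cell helicase Ddx4 had 11.17 and 11.15. These cell type markers each differed by less than 0.3. Of the other fixed reference markers above the floor, Star of Leydig cells (-0.48) and Cd68 of macrophages (0.47) differed by more. Gfra1 differed by 0.93 as measured and by 0.295 with values raised to the floor. Amh, Pecam1, Kit, Insl3 and Hbb differed by less than 0.3. Insl3, a hormone of Leydig cells, had 8.81 and 8.90, and Hbb, the beta globin of red cells, 14.66 and 14.87. Zbtb16, a marker of undifferentiated spermatogonia, was under the floor on both days (5.66 and 5.11), and Sox9 and Stra8 were not matched by name.

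Few probe sets differed by 2-fold between these days. At least 2-fold lower on day 8 were 133 probe sets, which is 0.979% of those compared, and at least 2-fold higher were 72, which is 0.53%. Together they made 1.51%, against 22.3% for day 10 over day 8, a comparison that shares the day 8 array. At 1.5-fold, 9.72% were called, with 668 higher (4.92%) and 652 lower (4.8%). Quartiles over all compared probe sets were -0.18 and 0.25, and the median was 0.04. Most calls were dim: with probe sets cut by mean intensity into 5 equal bins, the dimmest bin held 54 of the 72 higher and 88 of the 133 lower probe sets, and 5.23% of that bin was called against 0.147% of the brightest. On the dimmer day 43 of the higher and 74 of the lower probe sets were under the floor, and with values raised to the floor 34 higher (0.25%) and 73 lower (0.538%) remained. At 1.5-fold, raising values to the floor left 543 higher (4.0%) and 525 lower (3.87%). For genes below the floor on their dimmer day, a fold given as "at least" is taken against the floor. List counts use the measured values, and where values raised to the floor give another count, that count follows. Of the 5424 named genes compared, 4.24% were at least 1.5-fold higher and 4.30% at least 1.5-fold lower by measured values. Differences were above 0 in 55.4% of them, and every list count is to be read beside these shares.

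**Figure D1:**
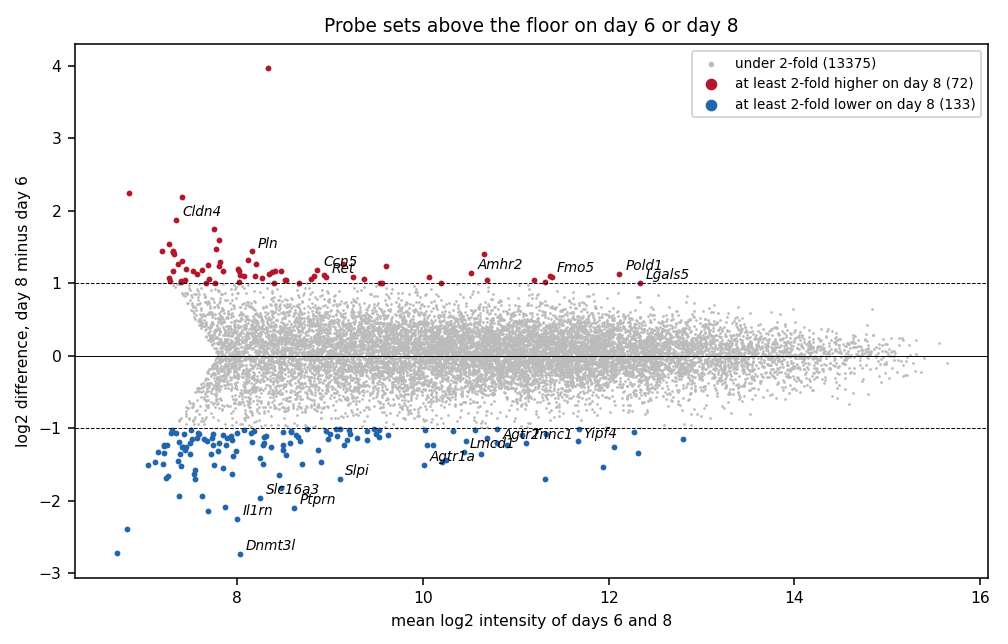
Log2 difference of day 8 over day 6 (vertical) against the mean log2 intensity of both days (horizontal) for the 13580 probe sets above the floor on at least 1 day, 1 point each. The 72 points at least 2-fold higher and 133 at least 2-fold lower lie mostly at low intensity, and the cloud narrows toward bright probe sets; the dashed lines mark 2-fold.

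Several genes of cytokine and chemokine signalling were lower on day 8. Il1rn, the natural antagonist of the interleukin 1 receptor, had 9.12, 6.87 and 10.29 on days 6, 8 and 10. It was at least 2.51-fold lower on day 8, when it was under the floor, and was above its day 6 level on day 10. Ccl7, which attracts monocytes, had 9.98, 8.81 and 10.02 on the 3 days and was 2.25-fold lower on day 8. Cxcl6, a chemokine of neutrophils, had 9.44, 7.95 and 4.26, so it was 2.82-fold lower on day 8 and under the floor on day 10. Ccl11, the eosinophil chemokine eotaxin, was at least 1.52-fold lower (8.39 and 7.03, then 7.76).

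The chemokine and cytokine list had 35 genes on the array, and 18 passed the floor. Cxcl6 is not on that list and is not in its counts. Differences were below 0 in 12 of these, while 55.4% of all named genes compared had one above 0. In the lower direction 6 members passed 1.5-fold (4.30% of all named genes compared) and in the higher direction 0 (4.24%). Of the 6, 3 passed 2-fold by measured values and 2, Il1rn and Ccl7, with values raised to the floor. The list median was -0.29, against 0.04 over all probe sets. Besides the genes above, the monocyte chemokine Ccl2 had 10.88, 10.09 and 10.86, and Cxcl1, a neutrophil chemokine, 11.06, 10.06 and 10.83; both were chosen after their values were seen. Both were back near their day 6 levels on day 10. Il1rl1, the receptor for interleukin 33, was at least 1.61-fold lower (8.48 and 7.77). Il6 and Cxcl2, also named after their values were seen, were under the floor on both days, and no fold is given for them.

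Slpi, an inhibitor of leukocyte serine proteases, was 3.24-fold lower (9.95 and 8.25) and was at 5.45 on day 10. Ptges, which makes prostaglandin E2, was at least 2.23-fold lower (8.95 and 7.54, then 7.55). The complement component C3 was 2.04-fold lower (9.91 and 8.88, then 9.51). Bdkrb1, an inducible kinin receptor chosen after its values were seen, was at least 1.95-fold lower (8.76 and 7.12, then 8.30). Of 21 complement and coagulation genes above the floor, 3 passed 1.5-fold in the lower direction and 1, the prothrombin gene F2, in the higher (7.24 and 8.05). F2 was under the floor on day 6, and with values raised to the floor 0 were higher. The median of that list was -0.14. Of all named genes compared, 4.30% were at least 1.5-fold lower and 4.24% higher by measured values.

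Of 18 macrophage and immune genes above the floor, 0 passed 1.5-fold in either direction, and the median was -0.08. Cd68, a macrophage marker, had 11.48 on day 6 and 11.95 on day 8, and Lyz2, the lysozyme of myeloid cells, had 8.56 and 9.11. The array held 12 mast cell genes, of which 3 passed the floor, with a median of -0.71. In this list 2 of the 3 passed 1.5-fold, both lower: Srgn, a granule proteoglycan shared with other blood cells (8.91 and 8.14), and Il1rl1, which the chemokine and cytokine list also holds. The other was Kit, the receptor for stem cell factor, with a difference of 0.27. The part of immune cells in the lower chemokine values was not tested.

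Several immediate early genes and 2 C/EBP transcription factors were lower on day 8. Fos, the AP-1 subunit, was at least 1.57-fold lower (8.45 and 7.13, then 8.99 on day 10). Junb, its partner, was 1.91-fold lower (10.62 and 9.68, then 10.61). Ccn1, a matricellular protein with immediate early kinetics, was 2.19-fold lower (11.26 and 10.12, then 11.84). Cebpd had 9.77, 8.54 and 9.75 on the 3 days and was 2.34-fold lower on day 8. Cebpb had 9.86, 8.72 and 9.93 and was 2.20-fold lower. These 5 genes had a day 10 level close to or above that of day 6, while the immediate early genes Egr1, Egr2, Egr3 and Zfp36, chosen after their values were seen, were lower on day 10 than on day 8 (12.32, 5.93, 4.95 and 8.09 on day 10).

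Among 30 immediate early genes on the array, 23 passed the floor. Their differences were below 0 in 17, and 8 members passed 1.5-fold in the lower direction against 1 in the higher. Of all named genes compared, 4.30% passed it in the lower and 4.24% in the higher direction, and 55.4% had a difference above 0. With values raised to the floor 6 were lower and 1 higher, without Egr2 and Egr3. The median was -0.39. The member that was higher was Jund, an AP-1 subunit known for steady rather than induced expression, at 2.01-fold (9.69 and 10.69, then 10.77). Jun, the founding member of that family, had 10.13 and 10.63, and Egr1, a zinc finger factor induced by growth signals, 14.09 and 13.51; both were chosen after their values were seen. The cytokine Lif, of the interleukin 6 family, was at least 1.52-fold lower (8.39 and 6.69, then 8.40), and the growth factor Fgf2 at least 1.02-fold lower (7.82 and 6.95). Cdkn1a, the cell cycle inhibitor p21, was 2.57-fold lower (9.21 and 7.85, then 8.15).

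**Figure D2:**
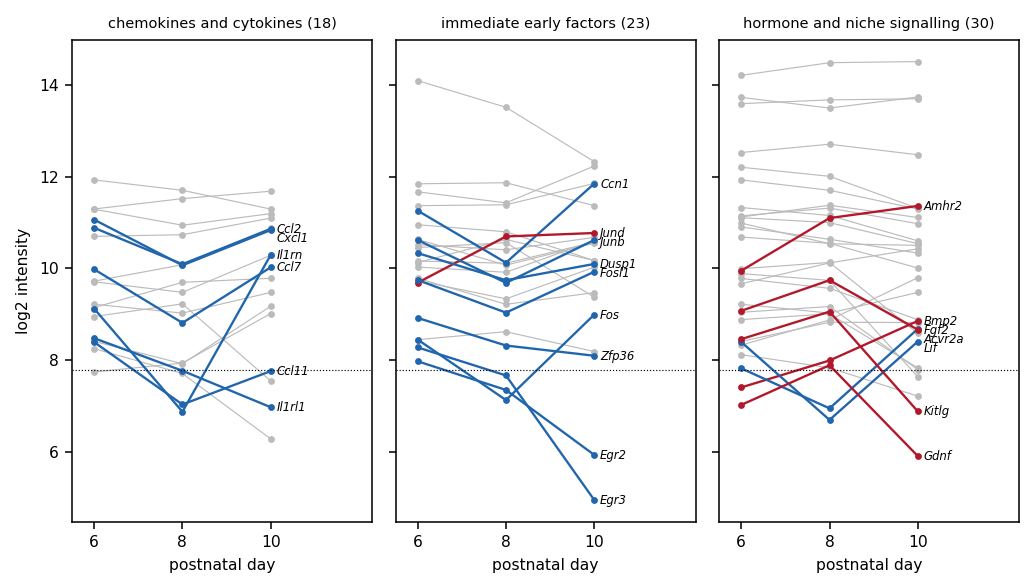
Log2 intensity on postnatal days 6, 8 and 10 (1 array each) of the members above the floor in the lists of chemokines and cytokines (18), immediate early factors (23) and hormone and niche signalling (30), 1 line per gene. By measured values, blue lines were at least 1.5-fold lower on day 8 than on day 6 (6, 8 and 2 genes) and red lines at least 1.5-fold higher (0, 1 and 5 genes); grey lines passed neither, and the dotted line is the day 8 floor.

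Promoter windows of some genes lower on day 8 are shown. They were chosen by hand, all but Dnmt3l with a motif match to show, so they do not stand for the lower genes as a set. Cxcl1, at 1.99-fold lower, is not among the genes at least 2-fold lower that are counted below. The windows run from 250 bases before to 50 bases after the gene's start in RefSeq (GRCr8), on the gene's strand, in lower case. In the chemokine genes, capitals mark a match to the kappaB motif, the sequence read by NF-kappaB factors, and in Ccl7 also to TATAAA. In Ccn1 and Agtr1a, capitals mark TATAAA. The Dnmt3l window had neither motif and is shown beside them as that of another gene of the 20 largest differences. A match is a description of letters and not a site.
Ccl7, chr10:67513845-67514144, plus strand: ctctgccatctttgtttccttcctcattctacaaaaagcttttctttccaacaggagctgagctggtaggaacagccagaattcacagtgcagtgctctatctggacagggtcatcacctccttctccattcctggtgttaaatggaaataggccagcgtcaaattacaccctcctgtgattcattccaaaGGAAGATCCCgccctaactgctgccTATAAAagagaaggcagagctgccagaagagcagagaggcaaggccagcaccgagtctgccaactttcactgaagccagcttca
Cxcl1, chr14:17479272-17479571, minus strand: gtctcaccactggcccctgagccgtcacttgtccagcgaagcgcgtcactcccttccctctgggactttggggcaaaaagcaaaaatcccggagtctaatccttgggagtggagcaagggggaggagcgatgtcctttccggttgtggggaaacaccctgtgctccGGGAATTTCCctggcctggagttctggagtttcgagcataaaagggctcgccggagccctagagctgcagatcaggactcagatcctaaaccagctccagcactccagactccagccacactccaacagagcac
Cxcl6, chr14:17596368-17596667, minus strand: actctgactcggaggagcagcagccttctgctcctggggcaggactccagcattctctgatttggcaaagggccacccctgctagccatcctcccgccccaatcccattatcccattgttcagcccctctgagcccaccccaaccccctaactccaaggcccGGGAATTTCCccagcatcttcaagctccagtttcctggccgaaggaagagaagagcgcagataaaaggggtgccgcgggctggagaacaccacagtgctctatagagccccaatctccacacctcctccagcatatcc
Ccn1, chr2:237225640-237225939, minus strand: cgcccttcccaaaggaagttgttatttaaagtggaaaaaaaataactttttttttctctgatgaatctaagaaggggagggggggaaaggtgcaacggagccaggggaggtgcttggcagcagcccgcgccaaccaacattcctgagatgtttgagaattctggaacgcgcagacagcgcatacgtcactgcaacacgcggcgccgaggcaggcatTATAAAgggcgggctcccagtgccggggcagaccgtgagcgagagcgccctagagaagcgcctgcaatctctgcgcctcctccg
Agtr1a, chr17:34435383-34435682, minus strand: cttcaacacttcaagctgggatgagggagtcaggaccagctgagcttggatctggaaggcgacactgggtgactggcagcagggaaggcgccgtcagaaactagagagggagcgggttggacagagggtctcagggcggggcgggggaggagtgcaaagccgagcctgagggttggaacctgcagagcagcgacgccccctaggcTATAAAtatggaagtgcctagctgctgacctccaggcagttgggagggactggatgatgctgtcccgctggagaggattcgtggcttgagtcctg
Dnmt3l, chr20:10628940-10629239, minus strand: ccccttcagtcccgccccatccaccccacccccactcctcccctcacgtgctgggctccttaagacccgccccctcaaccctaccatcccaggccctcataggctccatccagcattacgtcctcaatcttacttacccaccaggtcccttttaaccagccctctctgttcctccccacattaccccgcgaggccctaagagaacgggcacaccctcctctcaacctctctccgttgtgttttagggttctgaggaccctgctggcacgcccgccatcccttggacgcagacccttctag

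The kappaB match began 84 bases before the start in Cxcl1 and 88 bases before it in Cxcl6, on the gene's strand, and both had the same 10 letters. The match in Ccl7 began 59 bases before the start and lay on the opposite strand. TATAAA began 34 bases before the start in both Ccl7 and Ccn1 and 45 bases before it in Agtr1a. Of 5424 named genes in the comparison, 4468 (82.4%) had a promoter in the table. Among them were 43 of the 60 genes at least 2-fold lower and 19 of the 24 at least 2-fold higher. Slpi, Fos, Lif, Ccl11 and Cebpd, all at least 2-fold lower by measured values, had none, so the shares below leave them out.

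TATAAA, searched on both strands, was in 11 of the 43 promoters of lower genes (25.6%), in 0 of the 19 of higher genes, in 25 of 182 genes at least 1.5-fold lower (13.7%), in 11 of 184 at least 1.5-fold higher (5.98%), in 300 of all 4468 (6.71%) and in 14.3% of the 27457 promoters of the table. With the first base 40 to 20 bases before the start and on the gene's strand, it was in 5 of 43 (Ccl7, Ccn1, Cebpb, RT1-A2 and RT1-A3) and in 0 of 19. Such a match was in 3.85% of the genes at least 1.5-fold lower, 0.543% of those at least 1.5-fold higher and 57 of 4468 (1.28%). RT1-A2 and RT1-A3, which also count among the 11, are near-identical MHC class I genes and so are not separate cases. The kappaB motif was in 6 of 43 (14.0%), in 1 of 19 (5.26%), in 6.69% of the 4468 and in 5.06% of all promoters. Of these 6, 3 were MHC class I genes, which are near-identical to each other, so they are not separate cases. At 1.5-fold the kappaB motif was in 9.89% of the lower and 7.07% of the higher genes. The AP-1 motif TGANTCA was in 4 of 43 (9.30%), 0 of 19, 5.24% of the 4468 and 7.33% of all promoters. At 1.5-fold it was in 9.89% of the lower and 6.52% of the higher genes. The C/EBP motif TTGCNNAA was in 5 of 43 (11.6%), 3 of 19 (15.8%), 8.30% of the 4468 and 10.5% of all promoters. At 1.5-fold it was in 10.4% of the lower and 9.24% of the higher genes. TGACGTCA, the cyclic AMP response element, was in 1 of 43, 1 of 19, 3.04% of the 4468 and 1.91% of all promoters. At 1.5-fold it was in 2.75% of the lower and 1.63% of the higher genes. The CArG box of serum response factor was in 0 of 43, 0 of 19, 1.07% of the 4468 and 1.64% of all promoters. At 1.5-fold it was in 6 of 182 lower (3.30%) and 0.543% of the higher genes. A CArG box can contain TATAAA; the other motifs do not contain each other. The genes were chosen by their differences, so these shares are descriptions with no test.

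**Figure D3:**
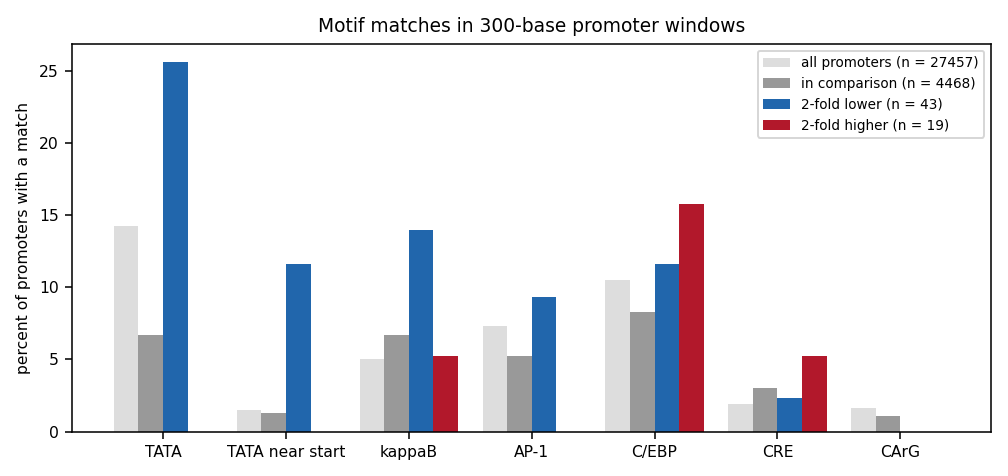
Percent of promoter windows of 300 bases that hold each motif on either strand (vertical; the second group takes TATA matches near the start on the gene's strand), for all promoters of the table (n = 27457), genes in the comparison (n = 4468), and genes at least 2-fold lower (n = 43) or higher (n = 19) on day 8. The TATA motif was in 25.6% of the lower and 0 of the higher genes' promoters, against 6.71% of those in the comparison. The near-identical genes RT1-A2 and RT1-A3 are each counted among the lower genes with it.

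The angiotensin receptors Agtr1a and Agtr2 were lower on day 8. Agtr1a, the receptor through which angiotensin II raises blood pressure, had 10.76, 9.26 and 9.92 on days 6, 8 and 10, 2.84-fold lower on day 8. Agtr2, a receptor of fetal and newborn tissues, had 11.40, 10.20 and 7.25, 2.30-fold lower on day 8 and under the floor on day 10. The angiotensin list had 12 genes on the array, and 6 passed the floor. The differences of these 6 were all below 0, with a median of -0.42, while 55.4% of all named genes compared had one above 0. Outside the receptors none of them reached 1.5-fold; Ace, the converting enzyme, had 10.18 and 9.82 and was chosen after its values were seen. The angiotensin precursor Agt and the receptor Agtr1b (4.24 and 4.75), also chosen after their values were seen, were under the floor on both days.

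Dnmt3l, a cofactor without its own catalytic activity that directs new DNA methylation in the young male germ line, was lower on day 8. Its level was 9.39, 6.67 and 6.80 on days 6, 8 and 10. It was thus above the floor on day 6 alone, and at least 3.03-fold lower on day 8; against the floor, Ptprn and Slpi differed by more. Its enzyme partner Dnmt3a had 10.98 and 11.03, and the maintenance enzyme Dnmt1 13.25 and 13.54, both chosen after their values were seen. Of 10 genes of DNA methylation and its readers above the floor, 1 was at least 1.5-fold lower and 0 were higher.

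Other genes among the 20 largest in the lower direction came from several settings. Ptprn, a membrane protein of secretory granules in neuroendocrine cells, was at least 3.63-fold lower (9.65 and 7.56, then 9.14 on day 10). Slc16a3, which exports lactate from glycolytic cells, was at least 2.71-fold lower (9.23 and 7.27, then 7.54), while the median of 23 glycolysis and lactate genes was -0.0075. Lmcd1, a LIM domain regulator of transcription, had a difference of -1.32 (11.10 and 9.78, then 8.96), and Yipf4, a Golgi membrane protein, was 2.27-fold lower (12.26 and 11.08, then 12.17). Tmem54 was 2.24-fold lower (9.76 and 8.60, then 9.51). Tnnc1, troponin C of slow and cardiac muscle, was 2.31-fold lower (11.71 and 10.50, then 12.09), and Acta1, skeletal muscle actin, at least 1.02-fold lower. In the skeletal muscle list 7 genes passed the floor, with 2 past 1.5-fold by measured values, both lower, and 1, Tnnc1, with values raised to the floor.

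The vascular connexin Gja5 was 2.04-fold lower on day 8 (10.83 and 9.80) and under the floor on day 10 (7.62). Gja4, another connexin of vessel walls, was 1.63-fold higher (10.96 and 11.66, then 11.03). The connexins Gja1 and Gjc1 of the junction list, named after their values were seen, had differences of 0.19 and -0.34. Kdr, the main VEGF receptor, was 1.70-fold higher (8.06 and 8.82) and was under the floor on day 10 (6.88). Esam, an adhesion molecule of endothelium, had a difference of 0.59 (9.09 and 9.68, then 9.18). Of 11 endothelial genes above the floor, 3 were at least 1.5-fold higher and 1 lower, with a median of 0.38. Of all named genes compared, 4.24% were that much higher and 4.30% lower. Pecam1, the general endothelial marker, had 10.44 and 10.17.

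MHC class I genes of the RT1 locus, which present antigen, split. RT1-A3 was at least 2.29-fold lower, RT1-CE7 2.15-fold and RT1-A2 2.01-fold lower, while RT1-CE16 was 1.78-fold higher (10.72 and 11.55). Over the 11 class I members of the A and CE series above the floor the differences ran from -1.25 to 0.83, with 7 negative and 4 positive. These genes are near-identical copies, so the array may not keep them apart, and their separate values are uncertain. Of the 20 interferon and class I genes that passed the floor, differences were above 0 in 17, against 55.4% of all named genes compared. In the higher direction 4 passed 1.5-fold (4.24% of all named genes compared), 3 with values raised to the floor. In the lower direction 1 passed (4.30%), and the median was 0.35. The 4 were RT1-CE16, the immunoproteasome subunit Psmb10, Bst2, which holds budding viruses at the cell surface (12.75 and 13.41), and Ifi27l2b, an interferon-inducible gene under the floor on day 6 (at least 1.43-fold). Psmb10 was named after its values were seen. Of the class I genes of the A and CE series, this list holds RT1-A1, RT1-A2 and RT1-CE16 alone. RT1-A3, RT1-CE7, RT1-CE5 (-1.03) and RT1-CE10 (-0.95) were all past 1.5-fold lower and are not in its counts. RT1-A1, RT1-CE5 and RT1-CE10 were named after their values were seen.

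Ret, the signalling receptor for GDNF, had 8.41, 9.50 and 9.86 on days 6, 8 and 10, and was 2.13-fold higher on day 8. Gfra1, its coreceptor, had 7.15, 8.08 and 7.64 and was at least 1.23-fold higher, being above the floor on day 8 alone. The ligand Gdnf had 7.02, 7.89 and 5.91, at least 1.07-fold higher, and was also above the floor on day 8 alone. Of 7 genes of undifferentiated spermatogonia above the floor (14 on the array), 2, Ret and Gfra1, passed 1.5-fold in the higher direction by measured values and 0 in the lower, with a median of 0.17. With values raised to the floor Ret alone passed. Differences were below 0 in 2 of the 7, Cdh1 (-0.41) and Tspan8 (-0.24), both named after their values were seen. Of all named genes compared, 4.24% were at least 1.5-fold higher and 4.30% lower by measured values. Tex101, a surface protein of germ cells, was 1.84-fold higher (9.50 and 10.38, then 11.52), and Sycp3, of the synaptonemal complex, 1.95-fold lower (9.32 and 8.36). The meiotic cohesin subunit Stag3 was 1.53-fold lower (10.17 and 9.56). Of 6 general germ cell genes above the floor, 1 was at least 1.5-fold higher and 1 lower.

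Amhr2, the receptor for anti-Müllerian hormone, had 9.95, 11.09 and 11.36 on the 3 days and was 2.21-fold higher on day 8. Its ligand Amh had 11.32 and 11.15. Kitlg, the ligand of Kit, had 8.46 and 9.06, then 6.88, and the bone morphogenetic protein gene Bmp2 had intensities of 169.3, 254.2 and 461.9 on the 3 days; both were chosen after their values were seen. Acvr2a, an activin receptor, was 1.59-fold higher (9.07 and 9.74). Of 30 hormone and niche signalling genes above the floor, 5 passed 1.5-fold in the higher direction and 2, Lif and Fgf2, in the lower by measured values, with a median of 0.10. With values raised to the floor 3 were higher, without Gdnf and Bmp2, and 1, Lif, lower. Differences were above 0 in 16 of the 30, against 55.4% of all named genes compared. By measured values 4.24% of those genes were at least 1.5-fold higher and 4.30% lower.

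The array held 29 genes of the Sertoli cell list, and 24 passed the floor. Differences were above 0 in 15 of the 24, against 55.2% of all compared probe sets, and the median was 0.26. By measured values 5 passed 1.5-fold in the higher direction and 0 in the lower, and with values raised to the floor 4 and 0. By measured values 4.24% of all named genes compared were that much higher and 4.30% lower. Cldn11, the claudin of Sertoli cell tight junctions, was 1.67-fold higher (12.46 and 13.20), Testin, a protein of Sertoli cell junctions, 1.52-fold (9.60 and 10.20) and Cst12, a cystatin, 1.51-fold (8.81 and 9.40). The other members past 1.5-fold were Kitlg and, by measured values alone, Gdnf. Both are also counted in the hormone and niche list. The list holds Lhcgr, a receptor of Leydig cells, which was under the floor on both days. Of 20 junction genes above the floor, 5 passed 1.5-fold in the higher direction by measured values and 4 with values raised to the floor, without Cldn4 (6.40 and 8.28, at least 1.41-fold). Gja5 was the 1 that was lower. Cldn11 and Testin are also counted in the Sertoli cell list, and Gja4 and Gja5 in the endothelial list, so these lists are not separate.

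Leydig cell genes had no common direction. Star, which carries cholesterol into the mitochondrion, had 11.78 and 11.30, then 9.55 on day 10. Of 23 above the floor, 3 were at least 1.5-fold higher and 1, Agtr2, lower, with a median of -0.01. Of all named genes compared, 4.24% were that much higher and 4.30% lower. The higher members were Fdxr, the reductase that feeds electrons to steroid enzymes, at 1.76-fold (11.38 and 12.19), Tcf21, a transcription factor of stromal progenitors, at 1.76-fold (12.43 and 13.25), and Hsd17b1, which acts on estrogens, at least 1.61-fold. In cholesterol biosynthesis, 24 genes passed the floor, 19 with a difference above 0, against 55.4% of all named genes compared. Past 1.5-fold were 3, all higher (4.24% of all named genes compared), and the median was 0.15. The 3 were Lss, the cyclase that forms lanosterol, at 1.81-fold (intensities of 511.3 and 923.8), the isomerase Ebp at 1.58-fold and Dhcr7, a reductase, at 1.57-fold. Cyp51, which demethylates lanosterol and was chosen after its values were seen, had a difference of -0.58 (11.45 and 10.87).

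Among the other genes of the 20 largest in the higher direction, Ccn5, a matricellular protein, was 2.26-fold higher (8.27 and 9.45, then 10.50 on day 10). Pold1, the catalytic subunit of DNA polymerase delta, was 2.18-fold higher (11.55 and 12.68, then 12.40), and Fmo5, a flavin monooxygenase, 2.14-fold (10.82 and 11.92, then 10.83). Pln, which restrains the calcium pump of muscle, was at least 2.12-fold higher (7.43 and 8.87, then 9.42). The alpha tubulins Tuba3a and Tuba3b were 2.13-fold and 2.05-fold higher, and as near-identical copies they may not be kept apart by the array. Npff, a neuropeptide precursor, was 2.08-fold higher (8.83 and 9.89, then 10.72). Kcns2, a potassium channel subunit, was 2.07-fold higher, Plppr4 2.06-fold and Rsrp1 2.03-fold, and their day 10 levels of 7.03, 9.67 and 10.90 were below those of day 8.

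The antioxidant enzyme Gpx3 was 2.01-fold higher (7.89 and 8.90, then 6.43). The rat galectin Lgals5 was 2.00-fold higher (11.84 and 12.84, then 12.51). Kdm8 (1.99-fold), the spindle protein Haus8 (1.98-fold), Rasd2 (1.92-fold), the spectrin Sptb (1.90-fold) and Adissp (1.90-fold) closed the 20. Of 33 antioxidant and glutathione genes above the floor, 4 were at least 1.5-fold higher and 1, the heme oxygenase Hmox1, lower (12.13 and 11.51), with a median of 0.04. Of all named genes compared, 4.24% were that much higher and 4.30% lower.

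**Figure D4:**
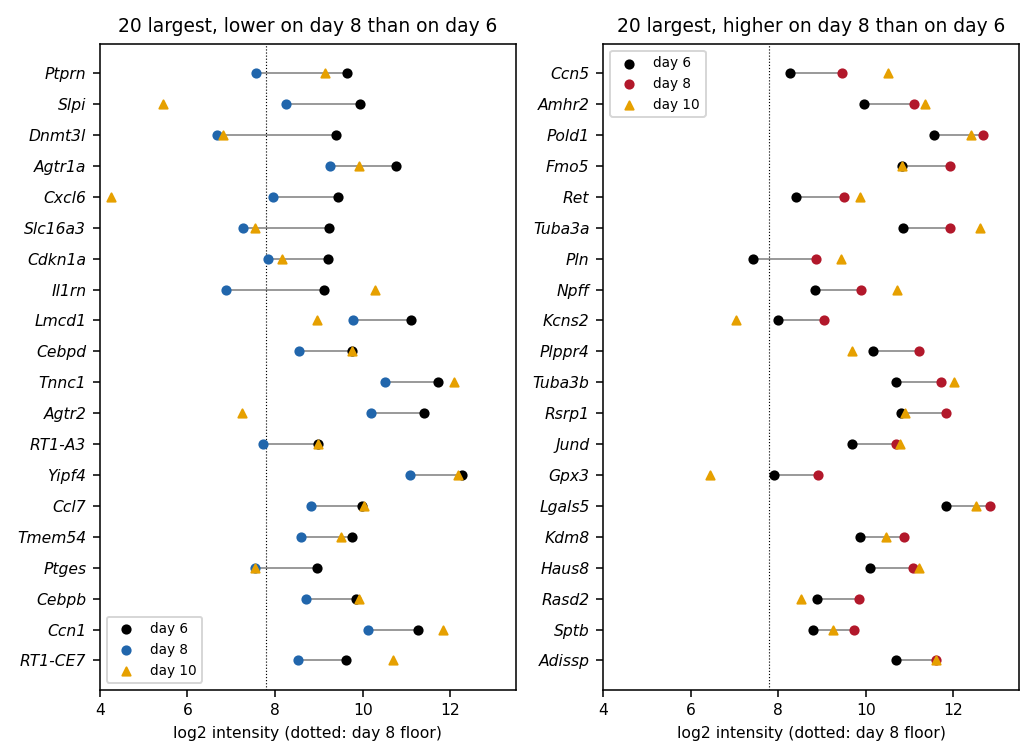
Log2 intensity (horizontal) on day 6 (black circle), day 8 (coloured circle) and day 10 (orange triangle) of the 20 named genes with the largest difference in each direction between days 6 and 8, ranked with values raised to the floor; 1 array per day. Day 10 levels lie on either side: Cebpb and Ccl7 are near their day 6 level, while Slpi, Cxcl6 and Agtr2 are far below their day 8 level.

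Other lists were described by their counts. Of 25 cell cycle and replication genes above the floor, 1, Ccnd3, a G1 cyclin, was at least 1.5-fold higher (11.17 and 12.05) and 1, Cdkn1a, lower, with a median of 0.03. Among 42 oxidative phosphorylation genes, differences above 0 numbered 34, against 55.4% of all named genes compared, and the median was 0.13. Ndufs7 of complex I was 1.71-fold higher and was the 1 gene past 1.5-fold. The list of imprinted growth genes had 13 members past the floor. Of these, 10 had a difference below 0, while 55.4% of all named genes compared had one above 0. Past 1.5-fold were 2, both lower, and the median was -0.21. One of the 2 was the fetal growth factor Igf2 (1.65-fold, 9.28 and 8.57); the other was Cdkn1a, which the list holds although it is not known as an imprinted gene. Of 20 heat shock genes above the floor, Hspb8, a small chaperone, was 2.05-fold lower (9.10 and 8.06, then 9.05), and the median was -0.04. Of 19 stress response genes, 2 were at least 1.5-fold lower, asparagine synthetase Asns (12.28 and 11.46) and the lipoprotein receptor Vldlr (9.74 and 8.99). In that list 0 were that much higher, but differences were above 0 in 14 of the 19, and the median was 0.13. Of all named genes compared, 4.30% were at least 1.5-fold lower and 4.24% higher. Crabp2, which carries retinoic acid, was 1.66-fold lower (13.29 and 12.55), and Aldh1a3, which makes it, 1.72-fold higher (8.47 and 9.25), among 14 retinoid genes above the floor. Gap43, found in growing axon tips, was 2.02-fold lower (9.71 and 8.69) and S100b, a glial calcium-binding protein, 1.63-fold lower, of 9 nerve genes above the floor. Axin2, a feedback inhibitor and target of Wnt signalling, was at least 1.11-fold higher (7.03 and 7.94, a difference of 0.91) and was the 1 gene past 1.5-fold by measured values among 12 Wnt, hedgehog and Notch genes above the floor (median 0.16), with 0 once values were raised to the floor. Of 28 proteases and inhibitors above the floor, Cst12 was at least 1.5-fold higher and the matrix protease Adamts1 lower (-0.77), with a median of -0.02. Pln was the 1 member past 1.5-fold among 15 peritubular and smooth muscle genes (median 0.10). Of 5 meiotic prophase genes above the floor, the 2 past 1.5-fold were Sycp3 and Stag3, both lower, and the 2 genes of differentiating spermatogonia above the floor held 0. Fibroblast and matrix genes (11 above the floor), erythroid genes (7), adipose genes (5), genes of epididymis, mesothelium and rete (6) and spermatid genes (3) held 0 members past 1.5-fold.

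**Figure D5:**
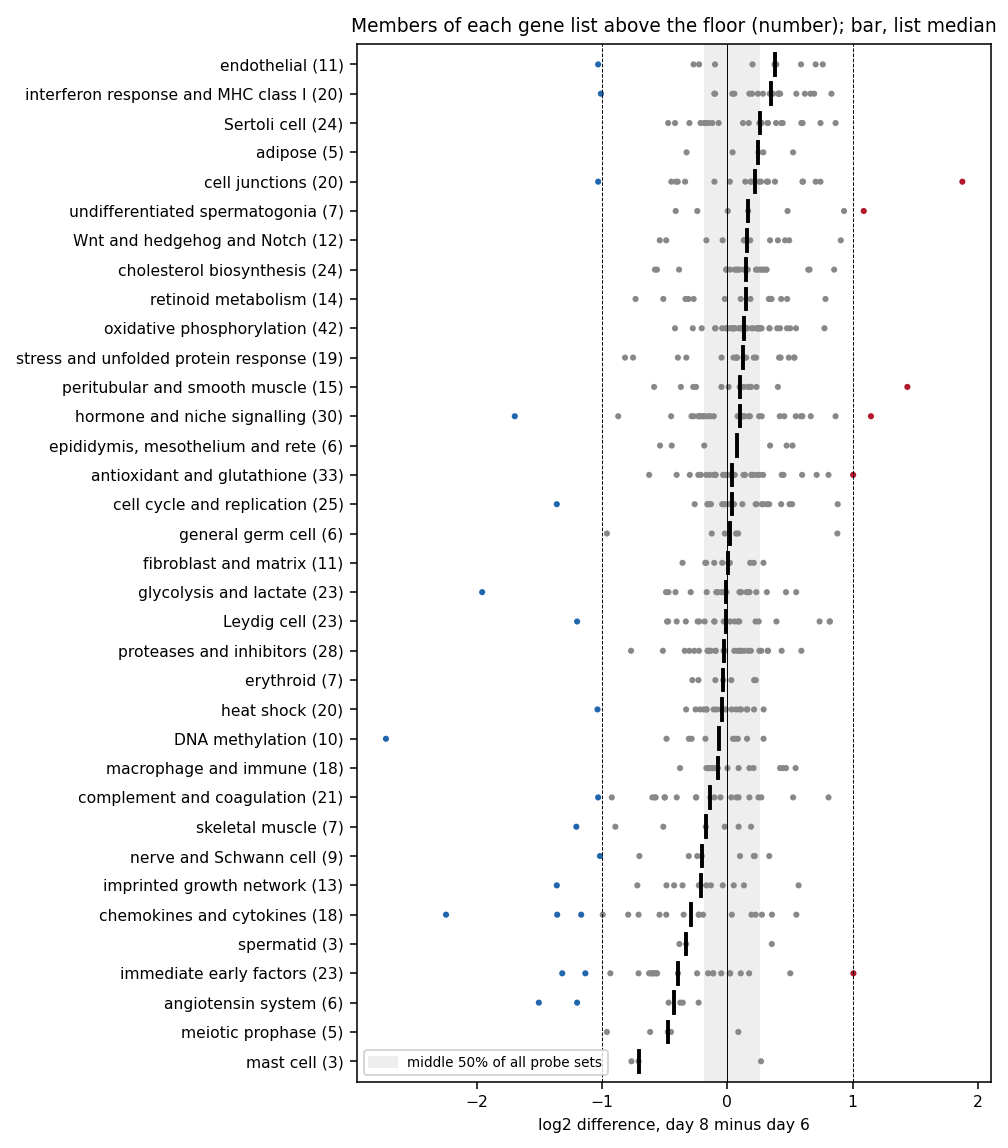
Log2 difference of day 8 over day 6 for every member above the floor of the gene lists with at least 3 such members (number in brackets), 1 point per gene, with a black bar at each list's median and the range between the quartiles of all compared probe sets, -0.18 to 0.25, in grey. Medians run from -0.71 in the mast cell list of 3 genes to 0.38 in the endothelial list; blue and red points passed 2-fold.

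For genes with several probe sets, the probe sets did not always share a value. Both probe sets of Slc30a2, a zinc transporter, were called, with differences of 1.60 and 1.74 from under the floor. Of 9 probe sets of the tropomyosin Tpm1, 1 was called, at -1.10, and the other differences ran from -0.66 to -0.025. Of the 2 probe sets of Epb41l1, a membrane skeleton protein, 1 had 1.00 and the other 0.0078. These 3 genes were chosen after their values were seen.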

How the data were processed

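Cy3-labelled material from total RNA of rat testis was measured on NimbleGen arrays of 1 colour, 1 per age, and the arrays of days 6 and 8 were compared. The authors deposited 1 linear intensity per RefSeq accession and array, made with RMA per the submitters' processing notes (version not given in the sources used here); RMA normalizes between arrays and so hides any change common to most genes. The deposited series table held the same intensity values (largest absolute difference 0.0). A column named as a standard error holds values below 0 and was not used. The number of arrays limits the precision.

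From these values, log2 intensities and log2 differences were computed in Python 3.11.15 with pandas 2.3.3. The random-sequence control row was left out. Of 26419 probe sets, 9740 had 1 symbol in the RefSeq gene table (GRCr8), 0 had several and 16679 are unnamed here. Probe sets of 1 symbol were averaged for gene values, which covers 96 of 9621 named genes. Each array's floor was set at its median or, if higher, the 95th percentile of 1239 olfactory and vomeronasal receptor probe sets; the median was higher on every array. A probe set was compared when above the floor on at least 1 array, and called at 2-fold, the threshold of the design text; 1.5-fold counts are given beside. Counting was tested on simulated data. Quantile and cyclic loess alternatives used limma 3.58.1.

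The members and the 36 gene lists were chosen with earlier results of these data known. The naming rule took the 20 largest differences in each direction after raising values to the floor, up to 3 members per list and direction at 1.5-fold or more or else the member that differed most, and fixed reference markers, 109 genes in all; it left out placeholder symbols and the olfactory, vomeronasal, trace amine receptor, immunoglobulin, ribosomal protein and histone families, but not other near-identical genes such as the RT1 and Tuba3 genes. Genes outside the rule, and the promoter motifs, were chosen after their values were seen. Promoters come from RefSeq (GRCr8). Some genes on the lists are not reported here by name.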

Additional observations from a re-analysis of the deposited data

How the results depend on the processing

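The counts of called probe sets depended on the floor. With the floor at the receptor 95th percentile 301 probe sets passed 2-fold in the higher and 392 in the lower direction, and with no floor 326 and 445. With the floor at the 75th percentile there were 9 and 24, with both arrays required to be above the floor 29 and 59, and with values raised to the floor 34 and 73. At 1.5-fold the counts were 668 and 652. Under median centring, quantile and cyclic loess normalization, averaging by symbol and the series table, the higher count lay between 59 and 72 and the lower between 132 and 155. The share of lower among called probe sets was 64.9% as reported and 72.4% with cyclic loess. The scalings moved no difference of the 109 named genes by more than 0.067, and raising values to the floor moved 15 of them by over the spread between probe sets of a gene (0.27). Some named genes lay close to the 2-fold line. Of the 44 at 2-fold, 42 stayed there with median centring, 41 with quantile and 39 with cyclic loess normalization. With values raised to the floor 40 stayed. The adipose and mast cell lists had no member above the 75th percentile and no value there. Under at least 1 other floor the medians of spermatid, meiotic prophase, mast cell, nerve, adipose, undifferentiated spermatogonia and angiotensin genes moved by more than 0.27. At the 75th percentile the undifferentiated spermatogonia median was -0.41, the hormone and niche median -0.12 and the angiotensin median -1.20, with fewer members entering. The general germ cell median changed sign under quantile and cyclic loess normalization and the glycolysis median under cyclic loess, both from near 0. No paired analysis was possible because each day had 1 array. Depth in the sense of signal over background limits the dim calls: the random control read 24.6 on day 8, where the floor stood at 221.4.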

Other observations

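The largest ratio of all compared probe sets belonged to a predicted accession that is unnamed here, XM_001053262. Intensities of 81.3, 1269 and 122.2 were read on days 6, 8 and 10, so it stood above the floor on day 8 alone and was at least 5.76-fold higher there than on day 6. A second unnamed accession, NM_206848, was at least 2.17-fold lower on day 8, with intensities of 480.5, 113.1 and 705.5 on the 3 days. Of the called probe sets, 46 of the 72 higher and 72 of the 133 lower are unnamed here, which is 63.9% and 54.1%, against 59.4% of all compared probe sets.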
